A study of Homo sapiens and Mus musculus with 24 samples.

Results

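The intestinal lineage transcription factors CDX1, CDX2, HNF4A, HNF4G, GATA4, GATA6, KLF4 and KLF5 were followed in a human intestinal epithelial cell line and in mouse colonic epithelium in which DNA methyltransferase 3A (DNMT3A) was removed. The genes were chosen by symbol, as known factors of intestinal identity, with earlier results of these data known. All 8 were found among the 58051 genes counted in the human libraries, and all 8 mouse genes of the same name among 29307. RNA-seq gene counts were analysed for 15 libraries of Caco-2, a human colorectal adenocarcinoma line with enterocyte features, and for 8 libraries of mouse cells. The Caco-2 groups were unmodified cells (WT, 4 libraries), a single-cell clone in which CRISPR-Cas9 had disrupted DNMT3A (ΔDNMT3A, 4 libraries), and lines made from that clone by inserting a tagged DNMT3A1 (3 libraries; a listed replicate 3 was not analysed here) or DNMT3A2 (4 libraries) transgene, so that the isoform lines carry the deletion as well. DNMT3A1 is the long isoform and DNMT3A2 a shorter one that lacks the N-terminal part. The mouse libraries came from EpCAM-positive colonic epithelial cells of adult C57BL/6 animals, 4 with floxed Dnmt3a alleles only (Dnmt3a fl/fl) and 4 that also carried Villin-Cre, which recombines the alleles in intestinal epithelial cells (Dnmt3a ΔIEC). Each Caco-2 group is 1 line, and the labels do not say whether its libraries came from separate cultures. The p-values therefore measure the spread between libraries of a line, and a difference between lines cannot be told apart from a difference between clones.

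DNMT3A adds methyl groups to unmethylated CpG dinucleotides. CDX1 and CDX2 are caudal-type homeobox proteins that define the intestinal identity of the epithelium. HNF4A and HNF4G are nuclear receptor paralogues that maintain genes of the enterocyte, including those of lipid handling and the brush border. GATA4 and GATA6 are zinc-finger factors, and GATA4 is known as the one that is restricted to the proximal small intestine, whereas GATA6 is present along the whole gut. KLF4 and KLF5 are Krüppel-like factors with opposed roles, KLF4 in cells that have left the cell cycle, including goblet cells, and KLF5 in dividing crypt cells.

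RefSeq (GRCh38.p14) gave start-site sequences for 5 of the 8 genes, with 7 starts in all. CDX1, HNF4G and GATA4 had no entry. Since DNMT3A acts on CpG, 4 of these starts are shown, those of KLF4, HNF4A and KLF5 whose upstream bases lie outside the counted exons. Each line gives the 250 bases before the start, 5′ to 3′ on the strand of the gene, with CpG dinucleotides in capitals.
KLF4, chr9:107489770-107490019, minus strand: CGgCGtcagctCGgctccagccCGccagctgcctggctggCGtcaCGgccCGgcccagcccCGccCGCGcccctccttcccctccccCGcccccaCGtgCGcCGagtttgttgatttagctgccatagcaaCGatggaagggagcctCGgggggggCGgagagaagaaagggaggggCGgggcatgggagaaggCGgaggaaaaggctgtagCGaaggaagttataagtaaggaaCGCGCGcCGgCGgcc
HNF4A, upstream start, chr20:44355449-44355698, plus strand: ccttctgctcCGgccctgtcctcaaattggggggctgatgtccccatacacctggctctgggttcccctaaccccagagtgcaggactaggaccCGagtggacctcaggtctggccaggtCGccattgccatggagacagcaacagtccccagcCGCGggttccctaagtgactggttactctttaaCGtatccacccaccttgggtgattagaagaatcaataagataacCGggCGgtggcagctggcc
HNF4A, downstream start, chr20:44400989-44401238, plus strand: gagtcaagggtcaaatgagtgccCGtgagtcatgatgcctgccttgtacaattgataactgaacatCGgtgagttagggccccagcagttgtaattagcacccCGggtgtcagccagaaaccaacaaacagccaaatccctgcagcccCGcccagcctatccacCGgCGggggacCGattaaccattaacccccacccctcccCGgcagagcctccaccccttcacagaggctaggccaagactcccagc
KLF5, upstream start, chr13:73054726-73054975, plus strand: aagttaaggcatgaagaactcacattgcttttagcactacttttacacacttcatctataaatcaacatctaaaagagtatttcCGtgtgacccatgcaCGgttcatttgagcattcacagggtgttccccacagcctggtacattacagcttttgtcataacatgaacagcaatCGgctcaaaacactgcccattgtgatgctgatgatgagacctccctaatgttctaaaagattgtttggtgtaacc
The KLF4 stretch held 25 CpG, and 78.4% of the 35116 starts in the RefSeq table held fewer (median 11). Each HNF4A stretch held 8 CpG, with 43.7% of starts below. The upstream KLF5 start had 3 CpG, with 22.9% of starts below, whereas the downstream KLF5 start (chr13:73058755-73059004) had 27, with 82.3% below. The starts of CDX2 (10 CpG) and GATA6 (16 CpG) lie in or next to counted exons and are not shown. The HNF4 letters CAAAGTCCA, the GATA letters AGATAA, the CDX letters CAATAAA and the KLF letters CCACACCC were searched on both strands of the 300 bases around each start. AGATAA was found at the CDX2 start and at the upstream HNF4A start, against 10.3% of all starts. CAATAAA occurred at the CDX2 start, against 4% of all starts. CAAAGTCCA (0.384% of all starts) and CCACACCC (3.28%) occurred at none of the 7.

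Each Caco-2 library held between 22104408 and 42161299 reads assigned to genes, and each mouse library between 16943626 and 24921248. Levels are counts per 1e6 reads (CPM) on library sizes scaled by the trimmed mean of M-values, and SDs are between libraries. Each library was counted as its own sample. Replicate libraries differed by more than sampling noise (chi-square over degrees of freedom 1.58 to 3.78 in Caco-2 and 8.06 to 63.5 in mouse). Such a spread cannot show whether the Caco-2 libraries came from separate cultures. The targeted gene itself fell from 64.6 ± 2.27 CPM in WT (SD, n = 4) to 20.7 ± 1.22 CPM in ΔDNMT3A (SD, n = 4). The DNMT3A1 line reached 38 ± 1.23 CPM (SD, n = 3). The libraries labelled DNMT3A2 stayed at 21.9 ± 1.4 CPM (SD, n = 4), and their difference from ΔDNMT3A was not past the threshold (log2 fold change 0.07, adjusted p = 0.272, edgeR). Whether the reads of that transgene are counted in full under the gene was not tested. The paper reports that immunoblots showed the protein of either isoform again in its line, and that staining placed both in the nuclei. Protein was not analysed here. The RNA counts by themselves do not check the label, and the libraries are called by it throughout. Mouse Dnmt3a was at 93.9 ± 7.7 CPM (SD, n = 4) in Dnmt3a fl/fl and fell to 46.1 ± 3.3 CPM (SD, n = 4) in Dnmt3a ΔIEC (adjusted p = 7.6e-04, edgeR). Epithelial markers were high throughout (EPCAM 729 to 1210 CPM over the Caco-2 libraries). Of the goblet cell markers, MUC2, CLCA1 and FCGBP were below 1 CPM in every line, but AGR2, TFF3 and ZG16 were not. AGR2 averaged 153 CPM in WT, 254 CPM in ΔDNMT3A, 292 CPM for DNMT3A1 and 151 CPM for the DNMT3A2 label. TFF3 averaged 3.8 to 7.2 CPM over the lines and ZG16 averaged 1.16 to 5.84 CPM. The summed level of the list ran from 154 to 317 CPM over the libraries. Of the immune markers, PTPRC, CD3E and CD79A were below 1 CPM in every line, whereas CD74 averaged 69.1 to 166 CPM and ITGAM 0.37 to 1.4 CPM. The part of these markers in the values of the 8 genes was not tested.

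In GRCh38, CDX1 (ENSG00000113722) lies on chromosome 5 (150166795 to 150184558, plus strand) and CDX2 (ENSG00000165556) on chromosome 13 (27962137 to 27971139, minus strand). HNF4A (ENSG00000101076) lies on chromosome 20 (44355700 to 44434596, plus strand) and HNF4G (ENSG00000164749) on chromosome 8 (75407914 to 75566843, plus strand). GATA4 (ENSG00000136574) is on chromosome 8 (11676959 to 11760002, plus strand) and GATA6 (ENSG00000141448) on chromosome 18 (22169443 to 22202528, plus strand). KLF4 (ENSG00000136826) is on chromosome 9 (107484852 to 107490482, minus strand), and KLF5 (ENSG00000102554) shares chromosome 13 with CDX2 (73054976 to 73077542, plus strand).

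To compare the genes with each other, levels were divided by the length of the counted exons. In WT Caco-2 cells the order on the scale of CPM per kb was HNF4A (58.4 ± 2.61), GATA6 (29.3 ± 0.349), CDX2 (24.4 ± 0.234), KLF5 (14.5 ± 0.594), GATA4 (0.859 ± 0.0669), KLF4 (0.769 ± 0.102), HNF4G (0.448 ± 0.0678) and CDX1 (0.0127 ± 0.0172; all SD, n = 4). The libraries of neighbours in this order did not overlap, except those of GATA4 and KLF4. HNF4A, GATA6, CDX2 and KLF5 thus made up an abundant set, and the other 4 genes were expressed at a low level. In ΔDNMT3A the order was the same except that KLF4 (1.8 ± 0.135) lay above GATA4 (0.695 ± 0.0734), with no overlap between their libraries. In DNMT3A1 KLF5 (22.6 ± 0.37, SD, n = 3) reached the level of CDX2 (21.8 ± 0.964), and these overlapped. The mouse colon showed another order. Klf4 led in Dnmt3a fl/fl cells (366 ± 67.4 CPM per kb, SD, n = 4), followed by Hnf4a (243 ± 33.8), Klf5 (102 ± 7.01), Cdx1 (86.8 ± 4.73), Cdx2 (68.1 ± 16.3), Hnf4g (17.8 ± 1.73), Gata6 (15.9 ± 1.11) and Gata4 (0.223 ± 0.138). Cdx1 overlapped Cdx2 there, and Hnf4g overlapped Gata6. CDX1 and KLF4, which stood among the low genes of Caco-2, were thus among the abundant ones in mouse colonic epithelium, while GATA4 was low in both. Human and mouse libraries were prepared and counted separately, so the orders are set side by side without a test.

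**Figure D1:**
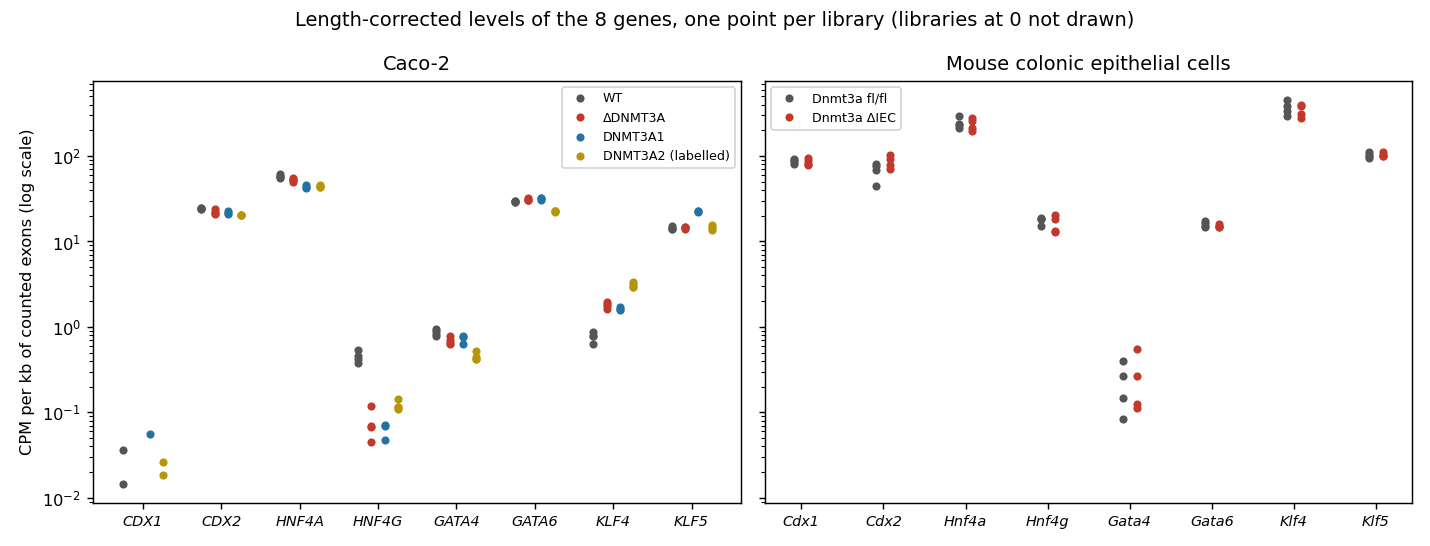
Levels of the 8 genes per library, in CPM per kb of counted exons on a log axis, for the 4 Caco-2 lines (left) and for the mouse genotypes (right). HNF4A, GATA6, CDX2 and KLF5 sit above 10 CPM per kb in every Caco-2 library, and CDX1 was counted in 5 of 15 Caco-2 libraries, the other 10 being at 0 and not drawn.

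The ΔDNMT3A clone was first compared with WT, which cannot tell the loss of DNMT3A apart from a difference between clones. HNF4G fell about 6-fold and KLF4 rose 2.33-fold, while CDX2, HNF4A, GATA6 and KLF5 differed by less than 0.2 on the log2 scale. Of the 7 genes that passed the filter on low counts, 6 passed an adjusted p of 0.05 in edgeR's quasi-likelihood test, against 62.2% of all 16654 genes tested. Of these, 2 were higher, beside 31.2% of all genes, and 4 were lower, beside 31.0% of all genes. The median size of their log2 fold changes was 0.18, beside 0.24 for all genes. The groups did not overlap for 5 of the 7, against 55.4% of all genes. HNF4G, among the 6, the 4 lower and these 5, was over the filter in 4 WT and 3 ΔDNMT3A libraries. It is therefore no support for these counts. In these bulk libraries, fewer expressing cells and less RNA per cell cannot be told apart.

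CDX1 was close to absent from Caco-2. It had 8 counts in the 15 libraries together, at most 3 in any library and none in 10 of them, and it was not tested in any Caco-2 comparison. A level of 3 counts corresponds to 0.0717 to 0.138 CPM in these libraries, and this limit covers counting error only. CDX2, the abundant paralogue, measured 102, 99.7, 101 and 100 CPM in the WT libraries and 89.7, 86.8, 97.8 and 91 CPM in ΔDNMT3A. All WT libraries lay above all ΔDNMT3A libraries, and the fall was small, with a log2 fold change of -0.15 (SE 0.03, adjusted p = 2.4e-04). Against ΔDNMT3A, CDX2 in DNMT3A1 (89.9, 86 and 94 CPM) differed by a log2 value of -0.02 (SE 0.04, adjusted p = 0.708), with overlapping libraries. The libraries labelled DNMT3A2 held 83.7 to 85.2 CPM, below every ΔDNMT3A library, with a log2 fold change of -0.12 (SE 0.03, adjusted p = 0.0022). Between the isoform lines CDX2 was higher in DNMT3A1 by 0.10 (SE 0.03, adjusted p = 0.012). This last call was lost with DESeq2 (adjusted p = 0.083), without the filter on low counts (0.052) and without DNMT3A1 replicate 4 (log2 fold change 0.06, adjusted p = 0.112).

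**Figure D2:**
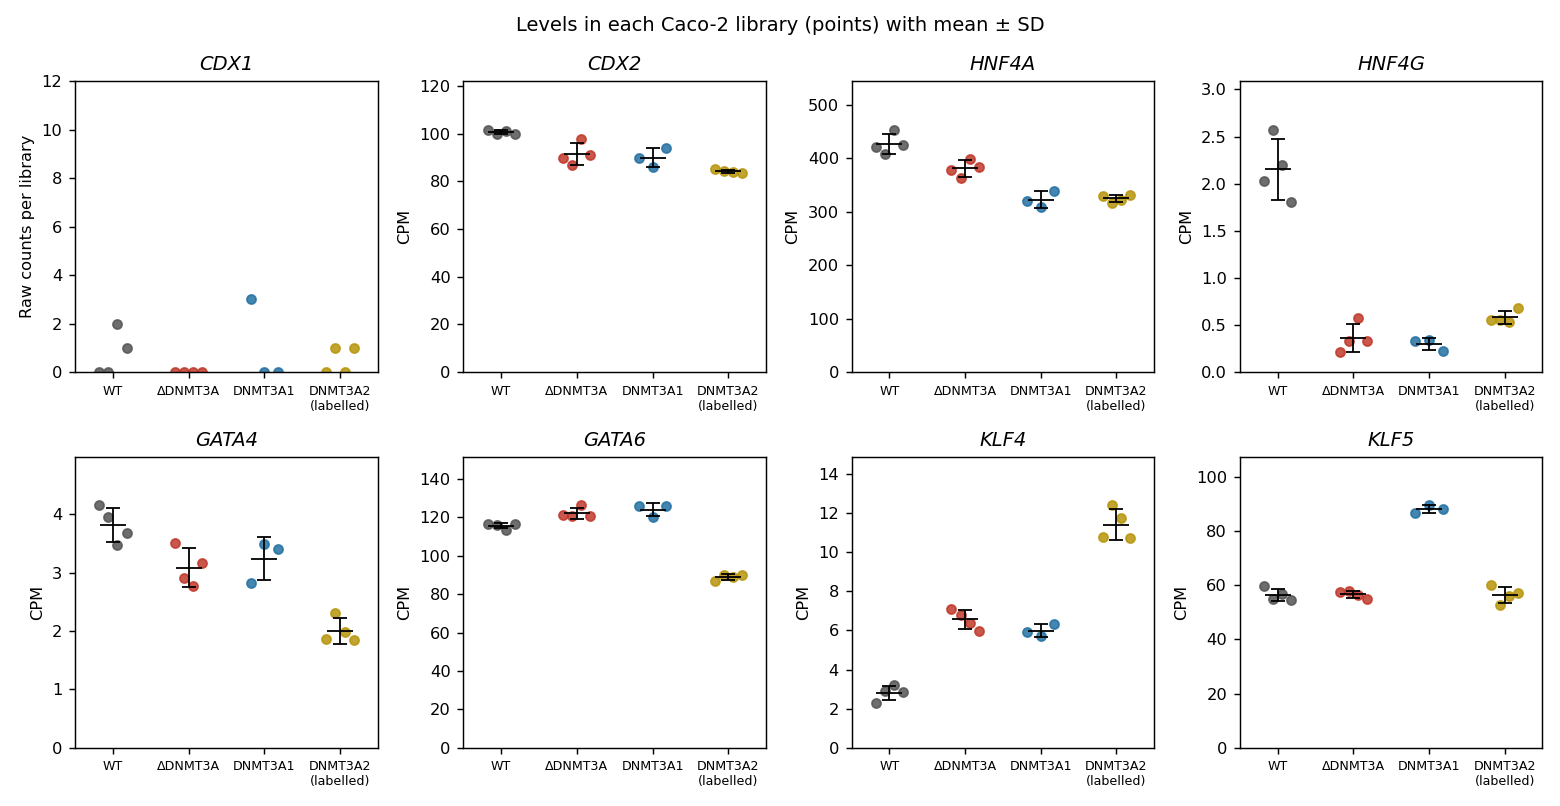
Level of each gene in every Caco-2 library, in CPM (raw counts for CDX1), with 1 point per library and bars for mean ± SD (none for CDX1). KLF4 rises from 2.3 to 3.19 CPM in WT to 10.7 to 12.4 CPM in the libraries labelled DNMT3A2, HNF4G is at least 1.8 CPM in WT and at most 0.681 CPM elsewhere, and KLF5 stands apart in DNMT3A1.

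HNF4A was the most abundant of the 8 genes in Caco-2 and fell step by step from WT to ΔDNMT3A to the isoform lines. It measured 421, 409, 454 and 424 CPM in WT and 379, 363, 399 and 383 CPM in ΔDNMT3A. These libraries did not overlap (log2 fold change -0.18, SE 0.03, adjusted p = 3.9e-05). In DNMT3A1 it measured 320, 308 and 339 CPM, below every ΔDNMT3A library, with a log2 fold change of -0.24 (SE 0.04, adjusted p = 1.1e-05). The libraries labelled DNMT3A2 held 317 to 332 CPM, also below all ΔDNMT3A libraries (log2 fold change -0.23, SE 0.03, adjusted p = 3.3e-08). The level in DNMT3A1 was thus lower again than in the deletion clone, not nearer to WT. Against WT the log2 fold change was -0.41 in both isoform lines (SE 0.04 for DNMT3A1 and 0.03 for DNMT3A2). The isoform lines were close to each other, with a difference of -0.01 (SE 0.03, adjusted p = 0.822) and overlapping libraries.

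HNF4G showed the largest change of the 8 genes in ΔDNMT3A against WT. Its raw counts were 68, 71, 69 and 70 in the WT libraries (2.03, 2.57, 2.2 and 1.8 CPM) and 9, 11, 17 and 10 in ΔDNMT3A (0.215, 0.326, 0.575 and 0.332 CPM). The log2 fold change was -2.61 (SE 0.23, adjusted p = 4.2e-10), about 6.1-fold lower, with no overlap. All 4 WT libraries and 3 of the 4 ΔDNMT3A libraries lay over the filter of 10 counts at the median depth, so the WT libraries alone would have passed the gene. Within the libraries of lane 5 and lane 6, the sequencing lanes that the deposited tables name, the log2 ratio was -3.09 and -2.14. DNMT3A1 libraries held 8 to 10 counts (0.225 to 0.345 CPM), and their difference from ΔDNMT3A was not past the threshold (log2 fold change -0.25, SE 0.38, adjusted p = 0.59). Libraries labelled DNMT3A2 held 12 to 21 counts (0.531 to 0.681 CPM) and overlapped with ΔDNMT3A, whose replicate 3 had 0.575 CPM. Of the DNMT3A2-labelled libraries 4 were over the filter, but of the ΔDNMT3A libraries 2, so the gene entered this comparison through the former. Here the log2 fold change of 0.73 (SE 0.30) passed the threshold (adjusted p = 0.037), but 9 of 15 alternatives lost this call, DESeq2 (adjusted p = 0.168) and the fit without ΔDNMT3A replicate 1 (log2 fold change 0.51, adjusted p = 0.161) among them. The call also went without ΔDNMT3A replicate 2 or 4 and without replicate 1, 2 or 4 of the DNMT3A2-labelled group. Against WT, HNF4G was lower by 2.84 in DNMT3A1 and by 1.87 in the DNMT3A2-labelled libraries on the log2 scale (adjusted p = 2.2e-10 and 8.7e-10). Between the isoform lines it was lower in DNMT3A1 (log2 fold change -0.97, SE 0.33, adjusted p = 0.011), where it passed the filter through the DNMT3A2-labelled libraries alone, and DESeq2 (adjusted p = 0.087) and the fit without DNMT3A1 replicate 4 (log2 fold change -0.79, adjusted p = 0.08) did not keep that call.

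**Figure D3:**
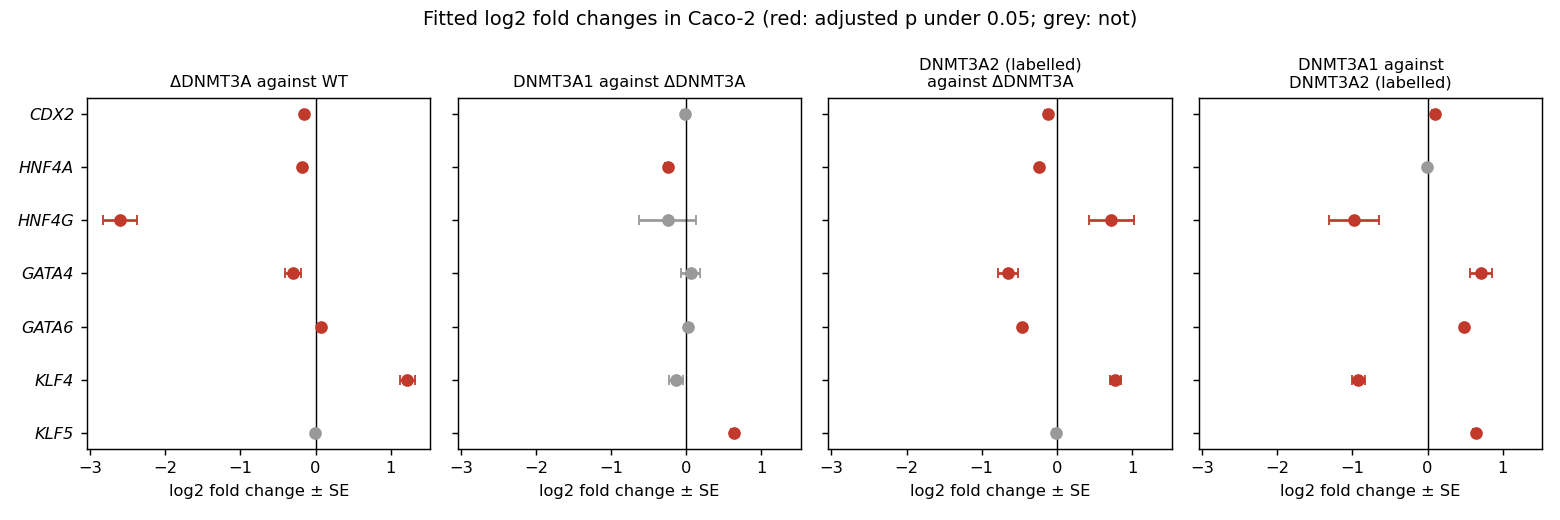
Log2 fold change (horizontal axis, point) with its SE (bar) for the 7 genes tested in Caco-2, in 4 comparisons from edgeR, red where the adjusted p was under 0.05. HNF4G at -2.61 and KLF4 at 1.22 stand out in ΔDNMT3A against WT, and in DNMT3A1 against ΔDNMT3A 2 genes, HNF4A at -0.24 and KLF5 at 0.64, are past the threshold.

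GATA4 was a low gene in Caco-2 and lowest in the libraries labelled DNMT3A2. The WT libraries measured 4.15, 3.95, 3.48 and 3.68 CPM and those of ΔDNMT3A 3.51, 2.9, 2.77 and 3.16 CPM, with a slight overlap. Its fall in ΔDNMT3A was 0.30 on the log2 scale (SE 0.11, adjusted p = 0.015). DESeq2 (adjusted p = 0.071), the fit without WT replicate 1 (log2 fold change -0.26, adjusted p = 0.055) and the fit without ΔDNMT3A replicate 3 (-0.25, adjusted p = 0.051) lost the call. DNMT3A1 libraries held 2.82 to 3.49 CPM, a log2 difference of 0.06 from ΔDNMT3A (SE 0.13, adjusted p = 0.711). With 1.86, 2.31, 1.98 and 1.85 CPM, each library labelled DNMT3A2 lay below every other Caco-2 library. The log2 fold change there was -0.65 against ΔDNMT3A (SE 0.13, adjusted p = 1.1e-04) and -0.96 against WT (SE 0.12, adjusted p = 5.1e-08). GATA4 in DNMT3A1 was above the DNMT3A2-labelled libraries by 0.71 (SE 0.15, adjusted p = 1.2e-04), and against WT its value of -0.24 (SE 0.12) was not past the threshold (adjusted p = 0.083).

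GATA6, the abundant paralogue, followed GATA4 in the libraries labelled DNMT3A2 but not in ΔDNMT3A. It measured 117, 116, 114 and 116 CPM in WT, 121, 120.5, 126.3 and 120.5 CPM in ΔDNMT3A and 120 to 126 CPM in DNMT3A1. The small rise in ΔDNMT3A (log2 fold change 0.07, SE 0.03, adjusted p = 0.036) was lost in 8 of 15 alternatives, with adjusted p-values up to 0.112. These were DESeq2, the fit with no filter, and the fits without ΔDNMT3A replicate 1 or 3 or without any 1 of the 4 WT libraries. In DNMT3A1 the value against ΔDNMT3A was 0.02 (SE 0.03, adjusted p = 0.52). The libraries labelled DNMT3A2 held 86.7, 89.9, 88.8 and 89.7 CPM, below every other Caco-2 library, and the log2 fold change was -0.46 against ΔDNMT3A (SE 0.03, adjusted p = 3e-13) and -0.40 against WT (SE 0.03, adjusted p = 1.7e-14).

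KLF4 rose in ΔDNMT3A and rose again in the libraries labelled DNMT3A2. The WT libraries measured 2.3, 2.9, 3.19 and 2.86 CPM and the ΔDNMT3A libraries 7.12, 6.78, 6.39 and 5.98 CPM. Every ΔDNMT3A library was above every WT library, with a log2 fold change of 1.22 (SE 0.10, adjusted p = 1.6e-10), and within lanes 5 and 6 the log2 ratio was 1.42 and 1.03. DNMT3A1 libraries held 5.91, 5.71 and 6.34 CPM and overlapped with ΔDNMT3A (log2 fold change -0.14, SE 0.09, adjusted p = 0.204). They stayed above WT by 1.09 (SE 0.11, adjusted p = 3.7e-09). The libraries labelled DNMT3A2 held 10.8, 12.4, 11.8 and 10.7 CPM, above all others. There the log2 fold change was 0.78 against ΔDNMT3A (SE 0.08, adjusted p = 2.6e-09) and 2.00 against WT (SE 0.09, adjusted p = 5e-18), a 4.01-fold level. KLF4 was lower in DNMT3A1 than in the DNMT3A2-labelled libraries by 0.92 on the log2 scale (SE 0.08, adjusted p = 2.4e-10).

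KLF5 was the one gene of the 8 that moved in DNMT3A1 and showed no call in the other lines. It measured 59.6, 54.9, 56.5 and 54.5 CPM in WT, 57.4, 57.8, 56.5 and 54.9 CPM in ΔDNMT3A and 60.1, 52.8, 56 and 57 CPM in the libraries labelled DNMT3A2, and these 3 groups overlapped. The log2 difference of ΔDNMT3A from WT was -0.003 (SE 0.04, adjusted p = 0.948), and that of the DNMT3A2-labelled libraries from ΔDNMT3A was -0.01 (SE 0.04, adjusted p = 0.827). In DNMT3A1 the libraries measured 86.6, 89.5 and 88.2 CPM, above all 12 others. The log2 fold change was 0.64 against ΔDNMT3A (SE 0.04, adjusted p = 1.1e-11), 0.64 against WT (SE 0.04, adjusted p = 8e-14) and 0.64 against the DNMT3A2-labelled libraries (SE 0.04, adjusted p = 4.7e-14).

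Counted over the genes, 2 of 7 were called in DNMT3A1 against ΔDNMT3A, beside 60.7% of all genes. This was 1 gene higher (30.4% of all genes) and 1 lower (30.3%), and the same 2 did not overlap between the groups (59.8% of all genes). In the libraries labelled DNMT3A2 against ΔDNMT3A 6 of 7 were called (67.9% of all genes), 2 higher (33.8%) and 4 lower (34.1%), and 5 did not overlap (61.4%). HNF4G, 1 of the 2 higher, passed the filter there only through the DNMT3A2-labelled libraries and is no support for this count. Against WT, 6 of 7 were called in DNMT3A1 (65.3% of all genes), 3 higher (32.6%) and 3 lower (32.7%), and 6 did not overlap (63.4%). HNF4G, 1 of the 3 lower, was over the filter in 4 WT libraries and 2 DNMT3A1 libraries and is likewise no support. The DNMT3A2-labelled libraries also had 6 of 7 called against WT (68.7% of all genes), 1 higher (34.3%) and 5 lower (34.4%), and 6 did not overlap (62.2%). Between the isoform lines 6 of 7 were called (68.5% of all genes), 4 higher in DNMT3A1 (34.5%) and 2 lower (33.9%), and 6 did not overlap (66.6%). HNF4G, 1 of the 2 lower, was over the filter in 0 DNMT3A1 libraries and is no support here either. The median size of the log2 fold changes was 0.14 in DNMT3A1 against ΔDNMT3A, beside 0.27 for all genes, and 0.46 in the DNMT3A2-labelled libraries against ΔDNMT3A, beside 0.29. These comparisons share the ΔDNMT3A or the WT libraries and are therefore not independent of each other. In DNMT3A1 against ΔDNMT3A, then, 5 of 7 were not called, which does not show that their levels were equal. CDX2, HNF4A, GATA6 and KLF4 passed the threshold against WT both in ΔDNMT3A and in DNMT3A1, each with the same sign. Of these, HNF4A was lower again in DNMT3A1 than in ΔDNMT3A, and the GATA6 call in ΔDNMT3A was lost in 8 of 15 alternatives. HNF4G was also lower than WT in both, but more WT libraries were over the filter each time, so it is no support here. The shared WT libraries enter both comparisons. All 32 calls had the same sign within lane 5 and within lane 6, although lane 6 held 1 DNMT3A1 library. Of the 10 differences not called, 3 had the same sign in both lanes. The lanes split the libraries that gave the calls, so this is no separate support for them.

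Ratios of paralogues within a library do not depend on the scaling between libraries. They were formed from counts per kb where both genes had more than 3 counts in every library, and tested by an exact two-sided permutation of the libraries. HNF4G stood at 0.00761 of HNF4A in WT and at 0.00136 in ΔDNMT3A, a difference of -2.49 in the log2 ratio (exact permutation p = 0.0286, the smallest that 4 against 4 libraries allow, and adjusted p = 0.0643 over 18 tests). KLF5 exceeded KLF4 by 19-fold in WT, 8.12-fold in ΔDNMT3A, 13.8-fold in DNMT3A1 and 4.65-fold in the DNMT3A2-labelled libraries. The log2 KLF5:KLF4 ratio changed by -1.22 in ΔDNMT3A against WT (adjusted exact permutation p = 0.0643) and by 0.77 in DNMT3A1 against ΔDNMT3A (adjusted exact permutation p = 0.0735; 3 against 4 libraries cannot go below an unadjusted 0.0571). In DNMT3A1, KLF5 was higher by 0.64 on the log2 scale than in ΔDNMT3A and than in WT. KLF4 there differed by -0.14 from ΔDNMT3A, not past the threshold, and stayed 1.09 above WT, so neither gene was back at its WT level. GATA6 exceeded GATA4 by 34.2-fold in WT, 44.7-fold in ΔDNMT3A, 43.3-fold in DNMT3A1 and 50.2-fold in the DNMT3A2-labelled libraries. None of the 18 Caco-2 ratio tests passed the threshold after adjustment, which these group sizes do not allow it to, and for the 6 KLF5:KLF4 comparisons the libraries of the groups did not overlap in any.

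Each gene was next set beside its 50 nearest tested neighbours in chromosome order. HNF4G (-2.61) lay below 49 of its 50 neighbours in ΔDNMT3A against WT, whose median log2 fold change was 0.12. KLF4 (1.22) lay above 48 of 50, with a neighbour median of 0.04. By contrast, HNF4A (-0.18) and GATA6 (0.07) lay in the middle of their neighbours, with medians of -0.14 and 0.06. In the DNMT3A2-labelled libraries against ΔDNMT3A, GATA6 (-0.46) had neighbours with a median of -0.39, 24 of them below it and 26 above it, so genes around GATA6 were lower to a like extent. KLF5 in DNMT3A1 against ΔDNMT3A (0.64) lay above 45 of 50 neighbours, whose median was -0.20. CDX2 in the DNMT3A2-labelled libraries (-0.12) stood against a neighbour median of 0.26, with 39 of 50 above it. The part of the neighbourhood in these values was not tested.

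**Figure D4:**
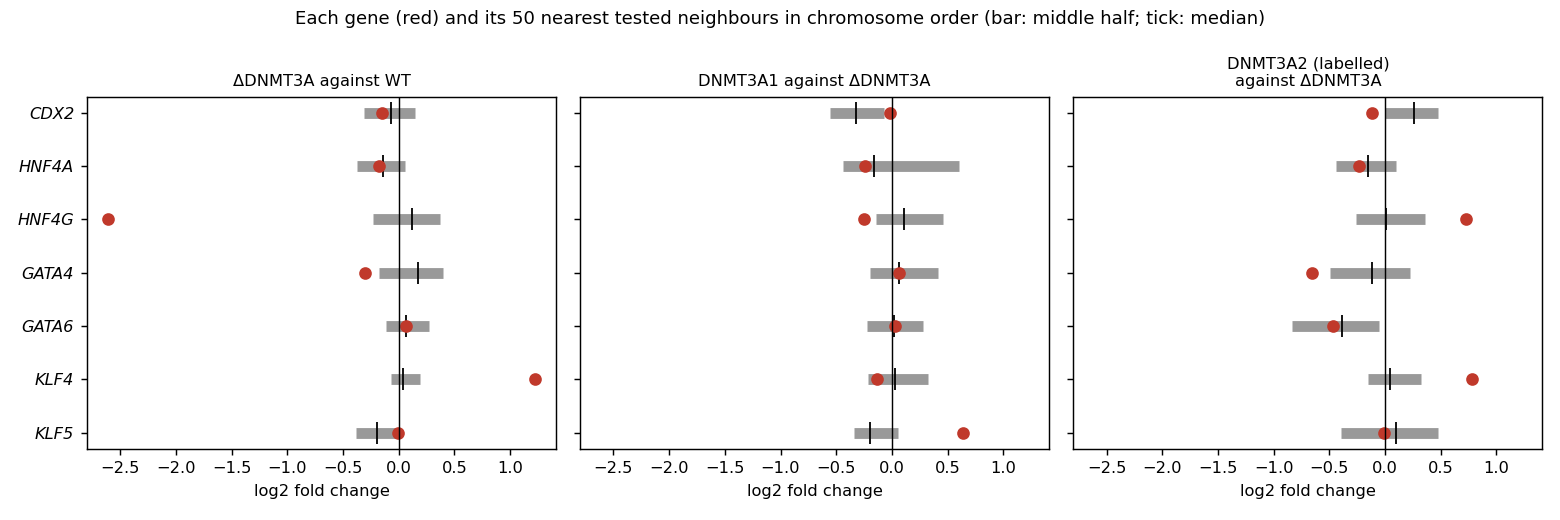
Log2 fold change of each gene (red point) and of its 50 nearest tested neighbours in chromosome order (grey bar, interquartile range; black tick, median) in 3 Caco-2 comparisons. KLF4 and HNF4G lie outside the bar of their neighbours in ΔDNMT3A against WT, whereas HNF4A and GATA6 lie inside it.

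For the genes whose group means spanned at least 1 on the log2 scale, HNF4G (2.5) and KLF4 (1.99), the 3 genes with the most similar pattern over the 4 lines were looked up. The pattern of HNF4G was closest to that of ALG10B (a glucosyltransferase of the dolichol pathway; root mean square difference 0.19 on the log2 scale), CDH16 (kidney cadherin; 0.22) and PAM (a peptide-amidating enzyme; 0.23). PAM, for example, averaged 95.3 CPM in WT and between 25 and 38.7 CPM in the other lines. The pattern of KLF4 was closest to that of AGXT (a peroxisomal aminotransferase; 0.11), ABCC9 (a potassium channel subunit; 0.13) and TTPA (the vitamin E transfer protein; 0.15). ABCC9 averaged 31, 84, 81.8 and 155 CPM in the same order of lines. With 4 lines, such likeness is a description of group means.

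The relatives and the known targets of these factors were summarised from hand-written lists. Of 20 other GATA, KLF and CDX family genes, 14 were tested in ΔDNMT3A against WT, with 4 higher and 7 lower (median log2 fold change -0.14, against -0.005 over all genes). Of all genes 31.2% were higher and 31.0% lower in this comparison, so these counts, and those of the lists that follow, are descriptions beside that background and no result about a list. KLF12, a transcriptional repressor, fell from 32.8 ± 0.452 to 13.9 ± 0.418 CPM (SD, n = 4 each; log2 fold change -1.25), KLF11 fell by 0.82, KLF6 rose by 0.69 and KLF15 rose by 0.39. KLF12 was nearer to WT in DNMT3A1 (27.3 ± 1.36 CPM, SD, n = 3) and lowest in the DNMT3A2-labelled libraries (7.21 ± 0.376 CPM, SD, n = 4). Of 32 other intestinal epithelial transcription factors, 27 were tested, with 8 higher and 12 lower (median -0.01). MAF, a factor of enterocyte maturation, rose from 1.12 ± 0.241 to 6.29 ± 0.922 CPM (log2 fold change 2.48), and GFI1, which acts in secretory cells, rose by 0.75. PPARA, a fatty acid sensor, fell by 1.25, and the pioneer factor FOXA1 fell from 137 ± 4.39 to 77.1 ± 3.71 CPM (by 0.84), whereas it measured 147 ± 2.01 CPM in DNMT3A1 and 122 ± 3.9 CPM in the DNMT3A2-labelled libraries. In these lists all genes named passed the threshold in ΔDNMT3A against WT.

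Of 7 tested CDX2 targets, 4 were higher and 1 lower in ΔDNMT3A against WT (median log2 fold change 0.39), where CDX2 itself was slightly lower. KRT20, a keratin of surface colonocytes, rose from 1.03 ± 0.32 to 16.1 ± 1.17 CPM (log2 fold change 3.95), and GUCY2C, the guanylin receptor, rose by 2.24. SI, sucrase-isomaltase, fell by 0.31. KRT20 is also a marker of colonocytes, and the summed level of the 6 colonocyte markers was 17 to 19.2 CPM in ΔDNMT3A, beside 2.88 to 4.8 CPM in the other lines, with AQP8, CA1, CA4 and SLC26A3 below 1 CPM on average in ΔDNMT3A. In DNMT3A1 KRT20 was at 1.82 ± 0.42 CPM (SD, n = 3), while GUCY2C stayed at 27.7 ± 1.6 CPM (SD, n = 3), beside 28.5 ± 1.72 CPM (SD, n = 4) in ΔDNMT3A. In the DNMT3A2-labelled libraries against ΔDNMT3A, all 7 CDX2 targets tested were lower (median -0.88), as was CDX2 (-0.12). Of all genes 34.1% were lower in that comparison. In DNMT3A1 against WT, 6 of the 7 were higher and 0 lower (median 1.08), while CDX2 was lower (-0.16). There 32.6% of all genes were higher and 32.7% lower. Whether the targets follow CDX2 was not tested.

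Of 14 tested HNF4A targets, 4 were higher and 7 lower in ΔDNMT3A against WT (median -0.17). APOA4, an apolipoprotein of chylomicrons, rose by 1.22 and EPS8L3 by 0.36, and APOM and CLDN15 fell by 0.55 and 0.53. In the DNMT3A2-labelled libraries against ΔDNMT3A, 2 were higher and 12 lower (median -0.69), beside 33.8% and 34.1% of all genes. In DNMT3A1 against ΔDNMT3A 7 were higher and 5 lower (median 0.32), beside 30.4% and 30.3% of all genes. HNF4A was lower in both, by 0.23 and 0.24 on the log2 scale, and these comparisons share the ΔDNMT3A libraries. The 4 GATA targets tested were 3 higher and 1 lower in ΔDNMT3A against WT (median 0.80), with LCT, lactase, rising from 9.61 ± 1.15 to 26.2 ± 0.708 CPM (log2 fold change 1.43) and the ileal bile acid-binding gene FABP6 rising by 1.47. All 4 were lower in the DNMT3A2-labelled libraries against ΔDNMT3A (median -1.48), where GATA4 and GATA6 were lower too. In ΔDNMT3A against WT, by contrast, GATA4 was lower (-0.30) and GATA6 slightly higher (0.07), calls that some alternatives lost. Whether the targets on these lists follow their factors was not tested. LCT was lower than in WT in both isoform lines, at 5.18 ± 1.06 CPM for DNMT3A1 (SD, n = 3) and 0.774 ± 0.214 CPM for the DNMT3A2-labelled libraries (SD, n = 4). Of the 5 targets of KLF4 or KLF5, 4 were higher in ΔDNMT3A against WT, with CDKN1A, the p21 cell cycle inhibitor, rising by 0.86 and CCND1, cyclin D1, by 0.15. In DNMT3A1 against ΔDNMT3A, 1 was higher and 3 lower (median -0.51), with CDKN1A lower by 1.22 on the log2 scale and CCND1 by 0.63. The lists overlap (SI is in 2 of them), and the summed level of the 5 small-intestine markers, all of which (APOA4, FABP6, SI, LCT and ALPI) are also on the target lists, differed between the lines, with 63.5 to 71 CPM for WT, 95.4 to 109 CPM for ΔDNMT3A, 105 to 130 CPM for DNMT3A1 and 28.6 to 31 CPM for the DNMT3A2-labelled libraries. The marker sum and the target counts are therefore not separate measurements.

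In the mouse, the comparison asked whether the factors change in epithelial cells that lost Dnmt3a in the animal. None of the 8 genes passed the threshold in Dnmt3a ΔIEC against Dnmt3a fl/fl with edgeR, none had an unadjusted p under 0.05, and DESeq2 gave 0 calls as well. Among all genes, 0.691% of the 14626 tested were called, 0.602% higher and 0.0889% lower (101 genes; 2058 had an unadjusted p under 0.05). DESeq2 called 352 genes (2.21%), and edgeR called 45 to 126 with 1 library left out, with 57, 55 and 61 genes without Dnmt3a fl/fl replicate 1, 3 or 4 and 57 and 45 genes without Dnmt3a ΔIEC replicate 2 or 3. In the comparison of all libraries the groups overlapped for all 8 genes, where 10.3% of all genes did not overlap. Cdx2 had the largest difference. It measured 175, 102, 155 and 184 CPM in Dnmt3a fl/fl and 160, 230, 208 and 179 CPM in Dnmt3a ΔIEC, with a log2 fold change of 0.33 (SE 0.18, adjusted p = 0.434). Dnmt3a fl/fl replicate 2 was the lowest library, and without it the value was 0.18 (adjusted p = 0.532), the lowest of 12 alternatives. Cdx1 measured 142 to 160 CPM in Dnmt3a fl/fl and 137 to 168 CPM in Dnmt3a ΔIEC (log2 fold change -0.02, SE 0.09). Unlike in Caco-2, both CDX genes were abundant here.

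Hnf4a was again far above its paralogue. It measured 1104, 1410, 1040 and 1143 CPM in Dnmt3a fl/fl and 952, 1034, 1243 and 1347 CPM in Dnmt3a ΔIEC (log2 fold change -0.04, SE 0.15, adjusted p = 0.941). Hnf4g, whose human counterpart was lower in the ΔDNMT3A clone than in WT, measured 50.1, 40, 48.7 and 48.1 CPM in Dnmt3a fl/fl. In Dnmt3a ΔIEC it measured 53.6, 35, 33.6 and 48.7 CPM (log2 fold change -0.13, SE 0.15, adjusted p = 0.752). Gata6 measured 46.9 to 54.9 CPM and 47.1 to 51.8 CPM (log2 fold change -0.06, SE 0.08). Gata4 was nearly silent, with 7, 20, 13 and 38 counts in Dnmt3a fl/fl and 12, 9, 35 and 23 counts in Dnmt3a ΔIEC, and its log2 value of 0.17 carried an SE of 0.57, wider than the difference itself. Klf4 measured 1022, 1374, 896 and 1168 CPM in Dnmt3a fl/fl and 842, 955, 1182 and 1205 CPM in Dnmt3a ΔIEC. Its log2 fold change was -0.09 (SE 0.17, adjusted p = 0.851), and the groups overlapped, unlike in Caco-2. Klf5 measured 163 to 192 CPM and 171 to 192 CPM (log2 fold change 0.03, SE 0.09). The human and the mouse difference were not tested against each other.

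**Figure D5:**
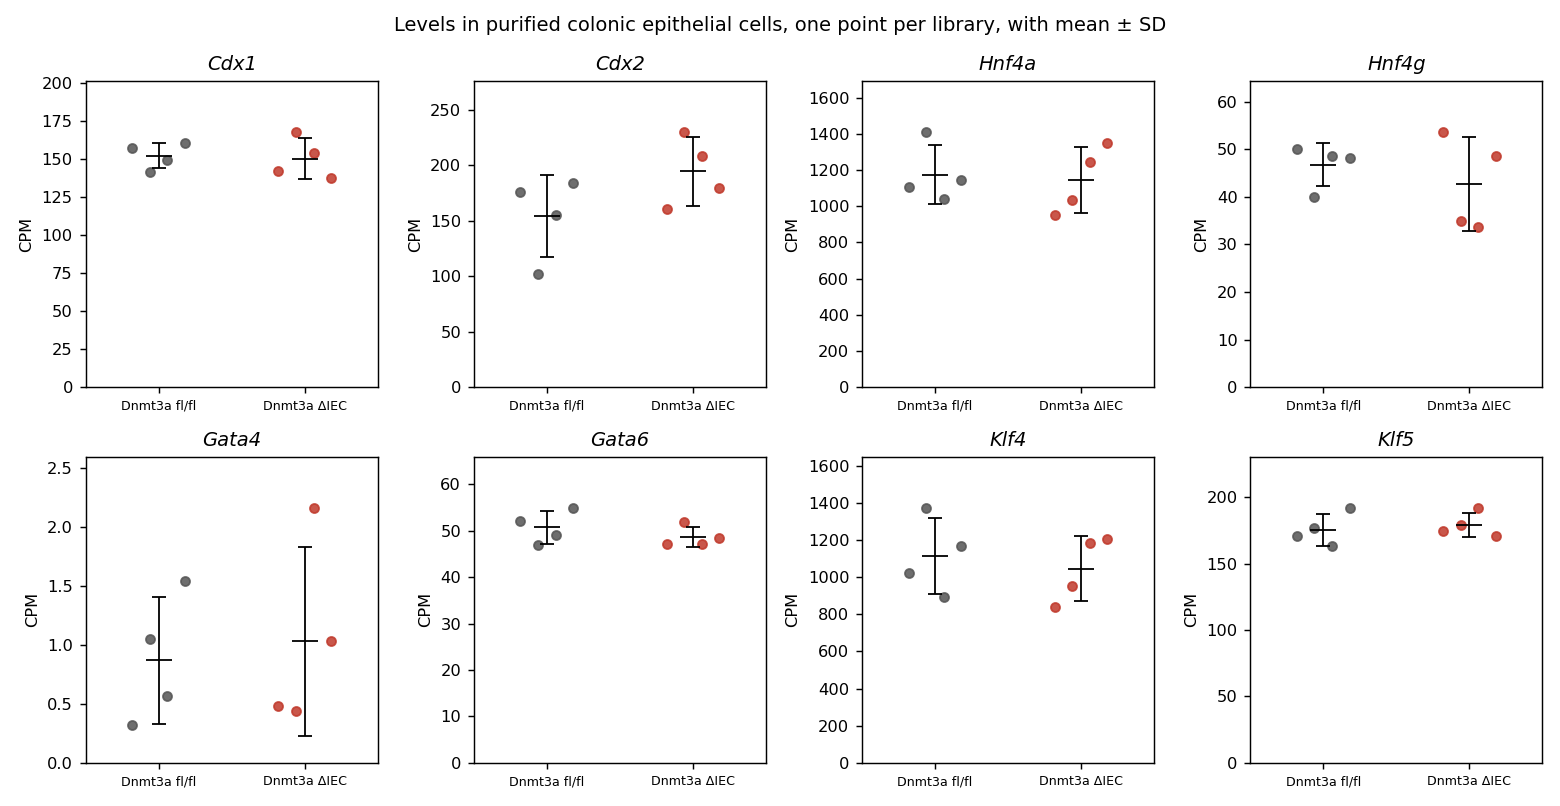
Level of each gene in every mouse library, in CPM, with 1 point per library and bars for mean ± SD, for Dnmt3a fl/fl and Dnmt3a ΔIEC. The groups overlap in all 8 panels, and Cdx2 (102 to 184 CPM against 160 to 230 CPM) is the most shifted.

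In GRCm38 these genes lie on chromosome 18 (Cdx1 and Gata6), chromosome 5 (Cdx2), chromosome 2 (Hnf4a), chromosome 3 (Hnf4g), chromosome 14 (Gata4 and Klf5) and chromosome 4 (Klf4), and the counts were made without regard to strand. The paralogue ratios did not pass the threshold in any of the 4 mouse tests. The smallest exact permutation p that 4 against 4 libraries allow is 0.0286, so a single changed ratio could not have passed after adjustment. The log2 Cdx2:Cdx1 ratio changed most, by 0.38 (exact permutation p = 0.0571, adjusted p = 0.229), and its libraries overlapped. Klf4 exceeded Klf5 by 3.55-fold in Dnmt3a fl/fl and by 3.26-fold in Dnmt3a ΔIEC, the reverse of Caco-2, where KLF5 was the higher of the pair in every line. Among the lists, 1 gene passed the threshold in the mouse, Pou2f3, the master regulator of tuft cells, which rose from 1.35 ± 0.165 to 4.58 ± 0.422 CPM (SD, n = 4 each; log2 fold change 1.75, adjusted p = 9.6e-04, edgeR). None of the 14 family genes, the 7 CDX2 targets, the 12 HNF4A targets, the 3 GATA targets or the 5 KLF targets tested was called. Sums of markers of other cells were not tested. The immune markers summed to 2.68 to 6.92 CPM in Dnmt3a fl/fl and 6.93 to 23.3 CPM in Dnmt3a ΔIEC, nearly touching. Cd3e, Cd79a, Lyz2 and Itgam averaged below 1 CPM in both genotypes, so the sum was mostly Cd74 and Ptprc. Cd74 averaged 2.76 CPM in Dnmt3a fl/fl and 7.65 CPM in Dnmt3a ΔIEC (up to 18.5 CPM), with overlap. Ptprc averaged 1.85 and 4.08 CPM. The 2 genes of this list that were tested were not called. The stromal, muscle and endothelial markers summed to 14.2 to 25.5 CPM and 15.2 to 18.5 CPM, so that the Dnmt3a ΔIEC libraries lay within the range of the controls. Colonocyte markers summed to 4856 to 9753 CPM in Dnmt3a fl/fl, with replicate 2, the library with the lowest Cdx2 and the highest Hnf4a and Klf4, at the top, and to 4565 to 7715 CPM in Dnmt3a ΔIEC, with overlap. The part of these markers in the values above was not tested.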

How the data were processed

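RNA-seq libraries of Caco-2 lines and of mouse colonic epithelial cells were used. The authors deposited 1 table of raw read counts per gene for each library, made after adapter trimming (Trim Galore 0.4.4) and alignment (STAR 2.5.2b, per the submitters' processing notes) with featureCounts, version 1.5.2 with reverse-strand counting for the human libraries (GRCh38) and version 1.6.4 without strand for mouse (GRCm38), per the file headers. Without strand, reads of overlapping antisense genes cannot be told apart. Groups were taken from the sample labels.

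Each comparison was fitted on its own groups over all genes with edgeR 4.0.16 in R 4.3.3 (filterByExpr with a minimum count of 10, TMM scaling, quasi-likelihood test, Benjamini-Hochberg adjustment, threshold 0.05), and the fit was tested on simulated data. Unless another test is named, every adjusted p is from this fit. Alternatives were DESeq2 1.42.0, its size factors, no filter, removal of a length trend, 1 fit over the Caco-2 lines, a replicate block, lane as a term and leaving out each library. Paralogue ratios were tested by exact permutation. Mean levels over the Caco-2 lines were compared as log2(CPM + 0.1) to find genes with a like pattern.

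The 8 genes, the gene lists and the tests were chosen with earlier results of these data known. Named in the text are the 8 genes, from each list at most the 2 highest and 2 lowest genes past the threshold in ΔDNMT3A against WT or in the mouse comparison with a mean of at least 1 CPM, and the 3 most similar genes for those spanning at least 1 on the log2 scale. Promoter sequences came from RefSeq.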

Additional observations from a re-analysis of the deposited data

Results flagged for a closer look

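Within groups of 4 libraries, 37 sets of levels were examined, of which chance alone picks out about 1 in 20, and 2 held a library apart from its group by Dixon's gap. HNF4G was at 0.681 CPM in replicate 4 of the libraries labelled DNMT3A2, with the others at 0.531 to 0.554 CPM. GATA6 was at 126.3 CPM in ΔDNMT3A replicate 3, with the others at 120.5 to 121 CPM.

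The effects of the isoform lines, which share the ΔDNMT3A libraries as their reference, differed in the direct test of DNMT3A1 against the libraries labelled DNMT3A2 for 6 of the 7 genes tested (4 to 6 over the alternatives). The log2 difference was 0.0994 for CDX2, -0.9741 for HNF4G, 0.7079 for GATA4, 0.4855 for GATA6, -0.9187 for KLF4 and 0.6423 for KLF5. HNF4G entered this test only through the libraries labelled DNMT3A2, with 0 of 3 DNMT3A1 libraries over the filter, and is no support for the count. Its call was lost in 2 alternatives and that of CDX2 in 3.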

How the results depend on the processing

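The number of the 8 genes past the threshold ranged from 4 to 6 over the alternatives for ΔDNMT3A against WT, from 5 to 6 for the libraries labelled DNMT3A2 against ΔDNMT3A, and from 4 to 6 between the isoform lines. It stayed at 2 for DNMT3A1 against ΔDNMT3A, at 6 for either isoform line against WT and at 0 in the mouse. Of 705 alternative values for single genes, 651 kept direction and side of the threshold and 25 lost a call, all of them of GATA4, GATA6, HNF4G or CDX2 in the comparisons named above.

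The other 29 changed sign, all for differences that were not called, and the cause was not tested. On the log2 scale, leaving out 1 library at a time gave -0.0221 to 0.0230 for KLF5 in ΔDNMT3A against WT, -0.0565 to 0.0106 for CDX2 and -0.4641 to 0.0415 for HNF4G in DNMT3A1 against ΔDNMT3A, -0.0391 to 0.0187 for KLF5 in the libraries labelled DNMT3A2 against ΔDNMT3A, -0.0368 to 0.0153 for KLF5 there against WT, and -0.0491 to 0.0269 for HNF4A between the isoform lines. In the mouse it gave -0.0750 to 0.0225 for Cdx1, -0.1255 to 0.0609 for Hnf4a, -0.4203 to 0.6289 for Gata4, -0.1835 to 0.0226 for Klf4 and -0.0069 to 0.0700 for Klf5. With all 4 lines in 1 fit, KLF5 was at 0.0080 in ΔDNMT3A and 0.0036 in the DNMT3A2-labelled libraries, each against WT. With the length trend removed, KLF5 in the latter was at 0.0206 against ΔDNMT3A and 0.0108 against WT, and mouse Klf5 at -0.0726.

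The human libraries share replicate numbers. Deviations of same-numbered libraries correlated by -0.080 to 0.071, with none over 0.1, so the numbers do not pair the samples. Under a replicate block, the genes past the threshold numbered 6, 2, 5, 6, 6 and 6 in the 6 human comparisons, with HNF4G in the DNMT3A2-labelled libraries against ΔDNMT3A the call that was lost (adjusted p = 0.0539, edgeR), and in DNMT3A1 against ΔDNMT3A CDX2 was at 0.0126 and HNF4G at 0.0532. The mouse numbers follow accession order only. All 189 alternative values of the paralogue ratios moved by less than 1 SD. Depth limits CDX1, HNF4G and GATA4 in Caco-2 and Gata4 in the mouse, whose counts were lowest.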
